A study of Mus musculus with 6 samples.

Results

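The genes described here are 10 regulators and receptors of the lung mesenchyme, the connective tissue that surrounds the branching airway epithelium. They comprise 8 transcription factors, Tbx2, Tbx3, Tbx4, Tbx5, Tcf21, Meox2, Twist1 and Prrx1, and the platelet-derived growth factor (PDGF) receptors Pdgfra and Pdgfrb. They were chosen by symbol, and each was measured by 1 probe set of an expression array, so that 10 of 28815 probe sets are members. Mutant embryos carried Shh-cre with floxed alleles of Foxp1 (Foxp1flox/flox) and Foxp4 (Foxp4flox/flox). Control lungs were titled ShhCre Control, so by the titles both groups have the Cre allele. The control titles do not give the Foxp1 and Foxp4 alleles. All were of a mixed C57BL/6 and 129X1,129S1 background, and lungs were taken from embryos at stage E14.5, with 3 arrays of mutant lungs and 3 of control lungs, each from a separate embryo. The study asked how loss of the forkhead transcription factors Foxp1 and Foxp4 alters expression while the secretory epithelium differentiates.

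In the lung, Shh-cre is active in epithelial cells, while the 10 genes are known mainly from the neighbouring mesenchyme. T-box factors of the mesenchyme act on airway branching through signals that the epithelium receives, and PDGF ligands made by epithelium and endothelium reach receptors on mesenchymal cells. The 10 genes are therefore taken as genes of the tissue beside the one in which Foxp1 and Foxp4 were targeted. Which cells of the whole lung their values came from was not tested. In whole lung, fewer cells of a type and less RNA per cell cannot be told apart.

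Values are log2 expression after RMA, the normalization used by the authors, and a log2 change is the mutant mean minus the control mean. Array medians lay between 8.21 and 8.23, and pairwise correlations between arrays over the probe sets lay between 0.995 and 0.998. Of the targeted genes, Foxp4 measured 9.83, 9.80 and 9.76 in mutant lungs, against 10.17, 10.19 and 10.26 in control lungs, a change of -0.41 (limma adjusted p = 0.0190) whose call ended without control 2, mutant 2 or mutant 3 (0.0797, 0.0876 and 0.0535) or with the replicate number as a block (0.130). Foxp1 measured 10.60, 10.59 and 10.72 in mutant lungs, against 10.94, 10.91 and 10.87 in control lungs, a change of -0.27 that did not pass (adjusted p = 0.0884). Both probe sets may lie outside the deleted exons, so they do not check the labels. Control 3 stood apart in Xist, the RNA that silences an X chromosome in females, at 12.83 against 6.00 to 6.23 on the other arrays. The count over the 10 genes and the list medians are therefore also given without control 3.

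None of the 10 genes passed the test. Fitted with limma over all probe sets, with a threshold of Benjamini-Hochberg adjusted p under 0.05, 0 of 10 were higher in mutant lungs, against 0.514% of all probe sets, and 0 of 10 were lower, against 0.260% of all probe sets, or 0.774% in both directions. At an unadjusted p under 0.05 the count was also 0 of 10, against 11.8% of all probe sets. The values of mutants and controls overlapped for all 10 genes, while they did not overlap for 18.0% of all probe sets. Without control 3 the count was again 0 of 10, with 0.354% of all probe sets called. In that fit 1 of the 10, Meox2, had an unadjusted limma p under 0.05, as did 2994 of the 28815 probe sets. Of the 10 changes, 9 lay below 0, as did 58.4% of all probe sets, and 8 were smaller than 0.1 in size, as were 71.9% of all probe sets. The median change of the 10 genes was -0.030, or -0.038 without control 3, and that of all probe sets was -0.018.

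**Figure D1:**
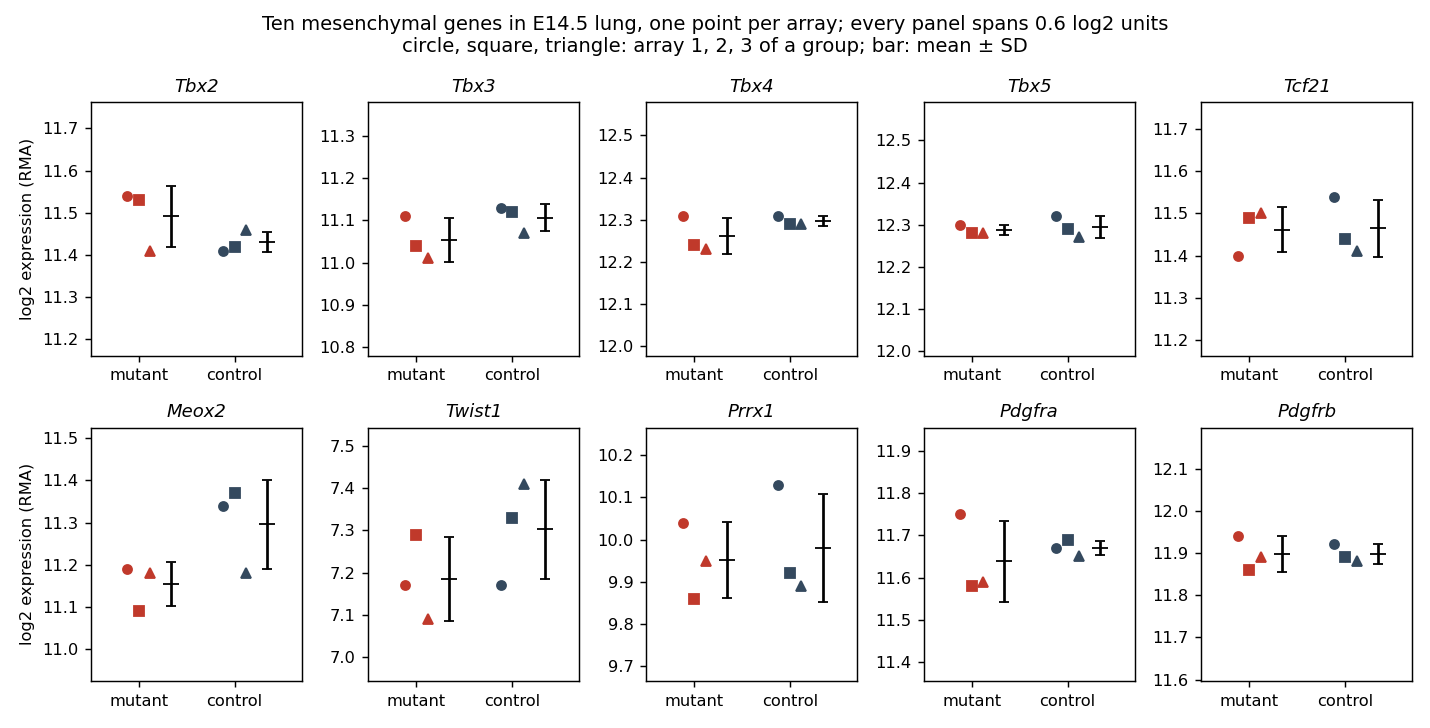
Log2 expression of the 10 genes on each array, with mutant arrays on the left and control arrays on the right of each panel, circles, squares and triangles for arrays 1, 2 and 3 of a group, and bars for the mean and SD. Each panel spans the same 0.6 log2 units, so that the tight Tbx5 values and the wide Twist1 and Prrx1 values can be compared, and the groups overlap in every panel.

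Tbx2 and its relative Tbx3 encode repressors that keep mesenchymal progenitors dividing. Tbx2 measured 11.54, 11.53 and 11.41 in mutant lungs, against 11.41, 11.42 and 11.46 in control lungs. Mutants 1 and 2 lay above all controls, and mutant 3 was just below control 1, the lowest control. The change was 0.061 (95% interval -0.058 to 0.18, adjusted p = 0.667), and Tbx2 was the only one of the 10 genes with a change above 0. Tbx3 measured 11.11, 11.04 and 11.01 in mutant lungs, against 11.13, 11.12 and 11.07 in control lungs. Here mutants 2 and 3 lay below every control, and mutant 1 lay within their range. The change of Tbx3 was -0.053 (95% interval -0.16 to 0.057, adjusted p = 0.687).

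Tbx4 and Tbx5 encode activators that are needed together for lung bud growth and branching. Tbx4 measured 12.31, 12.24 and 12.23 in mutant lungs, against 12.31, 12.29 and 12.29 in control lungs. Mutants 2 and 3 lay slightly below the controls, and the change was -0.035 (95% interval -0.14 to 0.068, adjusted p = 0.780). Tbx5 measured 12.30, 12.28 and 12.28 in mutant lungs, against 12.32, 12.29 and 12.27 in control lungs. It was the steadiest of the 10 genes, with a range of 0.0522 over the 6 arrays and a residual SD of 0.020, against a median residual SD of 0.075 over all probe sets. Its change was -0.0066 (95% interval -0.10 to 0.091, adjusted p = 0.960). In the genome Tbx4 lies beside Tbx2 on chromosome 11 and Tbx5 beside Tbx3 on chromosome 5, with 0 protein-coding genes between the members of either pair in the GRCm38.p6 annotation.

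Tcf21 and Twist1 encode basic helix-loop-helix (bHLH) proteins, which bind DNA at E-boxes as dimers. Tcf21, a factor of lung mesenchyme and other visceral mesenchyme, measured 11.40, 11.49 and 11.50 in mutant lungs, against 11.54, 11.44 and 11.41 in control lungs. No group was consistently higher, and the change was -0.0029 (95% interval -0.13 to 0.12, adjusted p = 0.988). Twist1, known from cranial and limb mesenchyme, was the dimmest of the 10 probe sets and measured 7.17, 7.29 and 7.09 in mutant lungs, against 7.17, 7.33 and 7.41 in control lungs. Controls 2 and 3 lay above every mutant and control 1 did not. The change of Twist1 was -0.12 (95% interval -0.29 to 0.059, adjusted p = 0.579). In the 6 fits that left out 1 array it lay between -0.066 (without control 3) and -0.18 (without control 1).

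Meox2 and Prrx1 encode homeodomain proteins of mesodermal and mesenchymal cells. Meox2 measured 11.19, 11.09 and 11.18 in mutant lungs, against 11.34, 11.37 and 11.18 in control lungs. Controls 1 and 2 stood above all 3 mutants, and control 3 lay among the mutants. The change was -0.14, or -9.35% on the linear scale, and did not pass (SE 0.063, 95% interval -0.29 to 0.0059, limma adjusted p = 0.436, unadjusted 0.0577). This was the largest change among the 10 genes in either direction, and 85.1% of all probe sets had a smaller one. Without control 3 the change was -0.20, still short of the threshold (limma adjusted p = 0.259). With arrays weighted by their quality it was -0.21 and passed (limma adjusted p = 0.0441), in a fit that called 6.07% of all probe sets. Prrx1 measured 10.04, 9.86 and 9.95 in mutant lungs, against 10.13, 9.92 and 9.89 in control lungs. Its change was -0.028 (95% interval -0.21 to 0.15, adjusted p = 0.903), and its residual SD of 0.11 was the widest of the 10 genes.

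Of the 10 promoters, 6 were matched by symbol in a RefSeq table of GRCm38.p6 that starts 250 bases before each gene, namely those of Meox2, Pdgfra, Prrx1, Tbx4, Tcf21 and Twist1, while Tbx2, Tbx3, Tbx5 and Pdgfrb were not matched. In these 250 bases, on both strands, the forkhead motif TGTTTAC was found in 0 of the 6 and in 3.17% of all 32851 promoters, and the T-box motif AGGTGTGA in 0 of the 6 and in 1.12% of all promoters. The E-box CANNTG, to which Tcf21 and Twist1 bind with their partners, was found in 3 of the 6, Meox2, Pdgfra and Tbx4, and in 66.2% of all promoters. The sequences before Meox2, which had the largest change, and before Tbx4, which holds 3 E-boxes, are shown with each E-box in capitals. Meox2 lies at chr12:37108290-37108539 and Tbx4 at chr11:85896515-85896764, each on the + strand and ending at the base before the gene's start. A match is a run of letters and not a measured binding site.
Meox2: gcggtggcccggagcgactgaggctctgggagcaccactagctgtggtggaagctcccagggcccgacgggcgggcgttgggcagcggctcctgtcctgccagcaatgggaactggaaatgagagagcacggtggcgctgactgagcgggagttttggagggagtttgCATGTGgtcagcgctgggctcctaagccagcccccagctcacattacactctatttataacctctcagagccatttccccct
Tbx4: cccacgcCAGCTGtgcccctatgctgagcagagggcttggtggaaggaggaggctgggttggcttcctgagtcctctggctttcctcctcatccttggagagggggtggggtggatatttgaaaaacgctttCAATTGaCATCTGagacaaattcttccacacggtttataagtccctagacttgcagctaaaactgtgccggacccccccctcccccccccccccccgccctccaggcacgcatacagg

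The PDGF receptors are receptor tyrosine kinases. Pdgfra, the receptor for PDGF-AA on progenitors of alveolar myofibroblasts, measured 11.75, 11.58 and 11.59 in mutant lungs, against 11.67, 11.69 and 11.65 in control lungs. Mutant 1 lay above the controls and mutants 2 and 3 lay below them. The change was -0.031 (95% interval -0.16 to 0.10, adjusted p = 0.854). Pdgfrb, the PDGF-BB receptor of pericytes and vascular smooth muscle, measured 11.94, 11.86 and 11.89 in mutant lungs, against 11.92, 11.89 and 11.88 in control lungs. The groups were centred on the same level, with a change of -0.00073 (95% interval -0.11 to 0.10, adjusted p = 0.996).

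**Figure D2:**
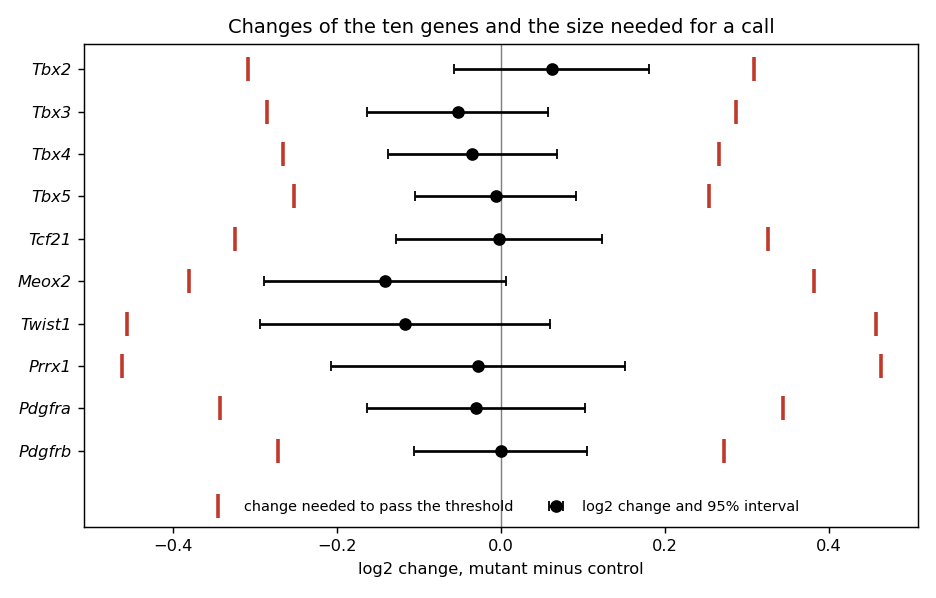
Log2 change, mutant minus control, of each of the 10 genes with its 95% interval, and in red the size of change each would have needed to pass the threshold. Every interval includes 0, and the red marks lie between 0.25 and 0.46 from 0 on either side.

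A p above the threshold does not show that levels were alike, so the intervals bound what the 6 arrays allow. Taken 1 gene at a time, the 95% intervals reached from -18.5% (Twist1) to 13.3% (Tbx2) in mutant lungs relative to controls, so that for each of the 10 genes a fall of more than 1.23-fold or a rise of more than 1.13-fold lay outside its interval. To reach the highest p among the called probe sets at its own SE, Tbx5 would have needed a log2 change of 0.25 and Prrx1 one of 0.46, or 1.19-fold and 1.38-fold. The called probe sets, which were selected by passing the threshold, had a smallest size of 0.28 and a median size of 0.57. For 7 of the 10 genes the residual SD lay under the median of all probe sets. The means over the 6 arrays lay between 9.97 and 12.29 apart from Twist1 at 7.24, below the array median, and the brightness of different probe sets does not rank their transcripts. In a 2-sided exact permutation test of 3 against 3 arrays, p was between 0.2 and 1 for the 10 genes, where the smallest possible p is 0.1. In the authors' deposited table, 0 of the 10 genes had a q under 5%, with q between 25.3% for Meox2 and 62.2% for Tbx2, against 1.72% of all probe sets under 5%.

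The members also differed in which array was extreme. Control 1 held the highest value for 5 of the 10 genes (Tbx3, Tbx4, Tbx5, Tcf21 and Prrx1) and mutant 1 for 3 (Tbx2, Pdgfra and Pdgfrb). Mutants 2 and 3 each held the lowest value for 4 genes. The median deviation of the 10 genes from their own means was 0.030 on mutant 1, -0.038 on mutant 2 and -0.045 on mutant 3, against 0.031, 0.0052 and -0.015 on controls 1, 2 and 3. Mutant 1 thus lay with control 1, and without mutant 1 the median change of the 10 genes was -0.067. For Twist1, the gene with the widest range over the arrays at 0.312, the listed genes with the most similar array profile were Thy1, Osr1 and Myc, with root mean square differences of 0.021, 0.026 and 0.047 log2 units over 6 arrays after each was centred on its mean. They were picked as the closest of all list and marker genes, and shared regulation was not tested.

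Ligands of the PDGF receptors were measured beside them. Pdgfa, the ligand that the lung epithelium makes for Pdgfra-expressing mesenchyme, measured 10.53, 10.56 and 10.58 in mutant lungs, against 10.79, 10.82 and 10.79 in control lungs. Every mutant lay below every control, while the groups overlapped for both receptors. Among 11 ligands, related receptors and helpers the groups did not overlap for 2, Pdgfa and Plat, against 18.0% of all probe sets. The log2 change of Pdgfa was -0.25 (SE 0.042, 0.843-fold with a 95% interval of 0.788 to 0.903), just short of the threshold (limma adjusted p = 0.0567, exact permutation p = 0.1). The call depended on the fit: adjusted p was 0.0196 with a trended robust prior, 0.0330 and 0.0273 with dim probe sets left out, and 0.00656 with array weights. With the replicate number as a block the limma adjusted p was 0.230, and the Welch test gave an adjusted p of 0.485. The limma adjusted p was 0.0995 to 0.280 in the 6 fits that left out 1 array. A second, dimmer Pdgfa probe set had a change of -0.17 (limma adjusted p = 0.534). That Pdgfa and its receptor changed by different amounts was not tested.

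The other ligands did not pass. Pdgfb, the endothelial ligand of Pdgfrb, measured 10.38, 10.31 and 10.36 in mutant lungs, against 10.32, 10.23 and 10.24 in control lungs, a log2 change of 0.087 (limma adjusted p = 0.517). Pdgfc had a log2 change of 0.040 and Pdgfd one of -0.058 (adjusted p = 0.754 and 0.869). Over 11 ligands, related receptors and helpers, 0 passed (1 by limma at an unadjusted p under 0.05), with a median change of -0.029 (-0.048 without control 3), and Plat, the protease that activates PDGF-CC, had a change of -0.15 (adjusted p = 0.440). Among 14 genes that carry the signal from the receptors 0 passed (1 by limma at an unadjusted p under 0.05), with a median of -0.011 (-0.044 without control 3). Mutants and controls were apart for 3 of these 14, Grb2 and Shc1 among them, against 18.0% of all probe sets. On the log2 scale the adaptor Grb2 was lower in mutants by -0.13 (adjusted p = 0.307 in limma). Nck1, whose groups overlapped, was at -0.12, and Shc1 was at 0.080, opposite in sign to Grb2. Of 12 immediate early genes, which growth factors induce within minutes to hours, 0 passed (also 0 by limma at an unadjusted p under 0.05) and 11 lay below 0, with Fos at -0.11, Myc at -0.12 and Ier3 at -0.092. Of all probe sets 58.4% lay below 0, and 11.8% had an unadjusted limma p under 0.05. The median of the immediate early genes was -0.049 (-0.042 without control 3), and Myc was at -0.068 without control 3.

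**Figure D3:**
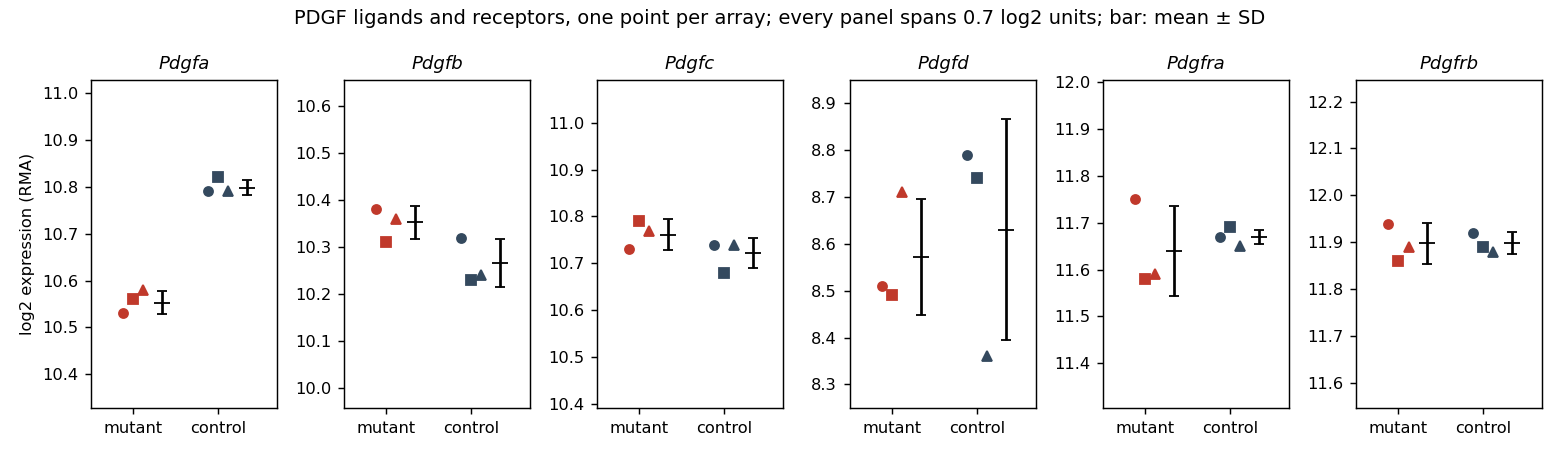
Log2 expression of the PDGF ligands Pdgfa, Pdgfb, Pdgfc and Pdgfd and of the receptors Pdgfra and Pdgfrb on each array, mutant arrays left of control arrays, with symbols and bars as in the plot of the 10 genes. Mutant and control arrays are apart for Pdgfa, at 10.53 to 10.58 against 10.79 to 10.82, and overlap in the other 5 panels.

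Genes downstream of the T-box factors were described next. Of 4 mesenchymal signals that depend on Tbx4 and Tbx5, 0 passed (also 0 by limma at an unadjusted p under 0.05). Fgf10, which draws out epithelial buds, measured 10.61, 10.52 and 10.49 in mutant lungs, against 10.62, 10.47 and 10.32 in control lungs, a change of 0.070 (limma adjusted p = 0.755). Without control 3 the Fgf10 change was -0.0057, and the median of the 4 signals was -0.033, against -0.059 with it. Wnt2, a mesenchymal ligand needed for lung specification, had a change of -0.11 and the growth factor Bmp4 one of -0.11 (limma adjusted p = 0.566 and 0.502), with Wnt2 at -0.061 without control 3 and at -0.18 without control 1. Of 5 genes that Tbx2 or Tbx3 repress, 0 passed (also 0 by limma at an unadjusted p under 0.05), with a median of -0.041 (-0.023 without control 3). The Wnt antagonist Shisa3 had a change of -0.21 (adjusted p = 0.606), the secreted Wnt antagonist Frzb one of -0.054 and the cell cycle inhibitor Cdkn2a one of -0.041. Shisa3 was low on mutant 3 alone, at 8.14 against 8.69 and 8.72 on the other mutants and 8.62 to 8.79 on the controls, and its change was -0.024 without mutant 3.

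Of the other 13 T-box genes 0 passed (1 by limma at an unadjusted p under 0.05, against 11.8% of all probe sets), with a median of 0.012 (0.028 without control 3). Tbx1, the T-box gene of pharyngeal mesoderm and endoderm, measured 9.75, 9.81 and 9.76 in mutant lungs, against 9.97, 10.02 and 10.08 in control lungs. The groups did not overlap for Tbx1, 1 of the 13, against 18.0% of all probe sets. All 3 mutants lay below the controls, with a log2 change of -0.25 (limma adjusted p = 0.0884) that passed with probe sets under the median left out (adjusted p = 0.0472) and with array weights (0.0106). In the fits that left out 1 array the adjusted p of Tbx1 was 0.0836 to 0.328, and with the replicate number as a block it was 0.256. Tbx20, a heart gene, had a change of 0.37 (limma adjusted p = 0.542) and measured 7.93, 7.59 and 8.41 in mutant lungs, against 7.95, 7.38 and 7.49 in control lungs. The change of Tbx20 was 0.15 without mutant 3, 0.54 without control 1 and 0.57 without mutant 2. Tbx22 had a change of 0.13 (adjusted p = 0.628).

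Among 23 other mesenchymal transcription factors 0 passed (7 by limma at an unadjusted p under 0.05), with 17 below 0 and a median of -0.060 (-0.063 without control 3). Over all probe sets 11.8% had such a p and 58.4% lay below 0. The groups did not overlap for 9 of the 23, against 18.0% of all probe sets. Snai1, a zinc finger repressor of epithelial genes, measured 10.90, 10.89 and 10.91 in mutant lungs, against 11.06, 11.05 and 11.10 in control lungs, a change of -0.17 (limma adjusted p = 0.172). Foxf2, a forkhead factor of gut and lung mesenchyme, had a change of -0.16, and Twist2, the closest relative of Twist1, one of -0.23 (adjusted p = 0.205 and 0.223). Tshz2, Msc and Foxd1 had changes of -0.15, -0.16 and -0.16. A second, dimmer Msc probe set had a change of 0.0016. Meox1, the relative of Meox2, had a change of 0.13 (limma adjusted p = 0.398), opposite in sign to the -0.14 of Meox2, and neither passed. Among 9 bHLH partners and inhibitors of Tcf21 and Twist1 0 passed (1 by limma at an unadjusted p under 0.05), with a median of 0.010 that turned to -0.00095 without control 3. Id3 and Id1, which block bHLH dimers from binding DNA, had changes of 0.24 and 0.14 (limma adjusted p = 0.342 and 0.559), and the bHLH factor Hand1 one of -0.19 (-0.089 without control 3).

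**Figure D4:**
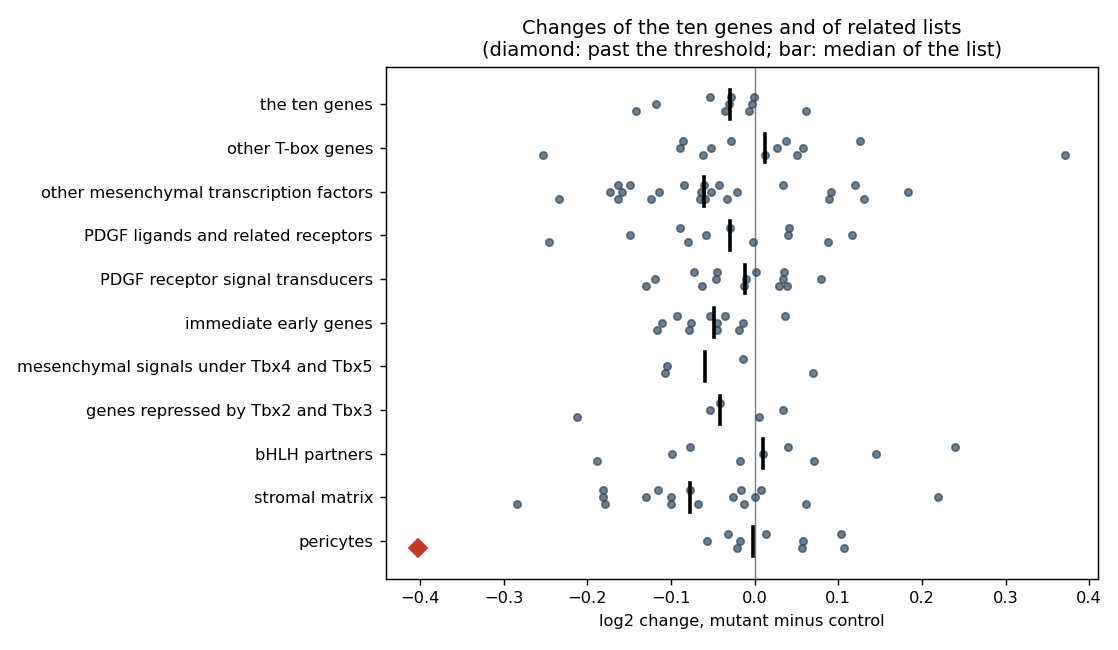
Log2 change, mutant minus control, of each measured gene in the list of the 10 genes and in the lists around it, with a black bar at each list's median and a red diamond for the gene past the threshold. The 10 genes lie between -0.14 and 0.061, and the single gene past the threshold is Anpep, in the pericyte list, at -0.40.

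Genes of the cells that carry the receptors were set beside them. Of 17 stromal matrix genes 0 passed (5 by limma at an unadjusted p under 0.05), with 13 below 0 and a median of -0.077 (-0.062 without control 3). Over all probe sets 11.8% had such a p and 58.4% lay below 0. The fibrillar collagen gene Col1a1 measured 12.10, 11.71 and 11.87 in mutant lungs, against 12.20, 12.14 and 12.19 in control lungs, a change of -0.28 (limma adjusted p = 0.294). Col1a2, Col3a1 and Col5a2 had changes of -0.18 each (adjusted p = 0.411, 0.301 and 0.270), and a second Col5a2 probe set of similar mean had one of -0.027. Eln, which encodes elastin, had a change of 0.22 (limma adjusted p = 0.371). Of 10 pericyte genes 1 passed and fell, the membrane aminopeptidase gene Anpep, at 7.94, 8.10 and 8.02 in mutant lungs, against 8.42, 8.37 and 8.49 in control lungs, a difference of -0.40 on the log2 scale (SE 0.058, limma adjusted p = 0.0301). The Anpep call ended in each of the 6 fits without 1 array (adjusted p = 0.0639 to 0.112) and with the replicate number as a block (0.140). Anpep is also made by cells other than pericytes, and Notch3, Ndufa4l2 and Pdgfrb had changes of 0.10, 0.11 and -0.00073. Without control 3 Ndufa4l2 was at 0.031, and the median of the 10 pericyte genes was -0.066, against -0.0022 with it. In the lists around the 10 genes, Anpep was thus the 1 call among 118 measured genes, against 0.774% of all probe sets.

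Markers of other tissues were followed as the mean log2 level of each list per array. Epithelial markers averaged 11.19 to 11.24 on mutant arrays and 11.12 to 11.21 on control arrays, with 0 of 14 past the threshold of limma (2 at an unadjusted p under 0.05). Endothelial markers averaged 11.39 to 11.45 on mutant arrays and 11.37 to 11.45 on control arrays, with 0 of 10 past it (also 0 unadjusted). Mesothelial markers averaged 9.19 to 9.36 on mutant arrays and 9.36 to 9.45 on control arrays, and 1 of 7 fell, Krt19 (log2 change -0.42, limma adjusted p = 0.0382), with 2 of 7 at an unadjusted p under 0.05 and a median change of -0.15 (-0.13 without control 3). Cartilage markers averaged 7.95 to 8.002 on mutant arrays and 8.06 to 8.19 on control arrays, and 1 of 7 fell, Col11a1 (log2 change -0.32, limma adjusted p = 0.0488). Of the 7 cartilage markers, 5 had an unadjusted p under 0.05, against 11.8% of all probe sets, and 5 had groups that did not overlap, against 18.0%, with a median change of -0.18 (-0.12 without control 3). The Col11a1 call ended in each of the 6 fits without 1 array (adjusted p = 0.0646 to 0.190) and with the replicate block (0.202), and the Krt19 call in 5 of them, all but that without mutant 1 (0.0760 to 0.162, against 0.0455 without mutant 1) and with the block (0.0849). Smooth muscle markers averaged 10.60 to 10.63 on mutant arrays and 10.53 to 10.61 on control arrays, with 0 of 8 past the threshold of limma (1 at an unadjusted p under 0.05). In the erythroid, other blood, heart and skeletal muscle lists 0 of 8, 0 of 7, 0 of 10 and 0 of 8 measured markers were past the threshold of limma, and 0, 1, 0 and 1 had an unadjusted p under 0.05. Heart markers averaged 8.54 on mutant 3 and 8.24 to 8.38 on the other arrays. On control 3 skeletal muscle markers averaged 7.19, against 7.02 to 7.05 elsewhere, and other blood markers 8.61, against 8.79 to 8.82. Erythroid markers averaged 10.32 to 10.87 on mutant arrays and 10.59 to 10.73 on control arrays. The part of these tissues in the values of Anpep, the collagens and Meox2 was not tested. Which cells of the whole lung the Krt19 values came from was also not tested.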

How the data were processed

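Per the submitters' processing notes the authors made the deposited log2 values with RMA. Not given in the sources used here: genome build, software version and type of array. The annotated table also holds the authors' comparison of mutant with control, per the file headers: a signed fold, a difference score, a q-value in percent and a p-value, from a test that is not named.

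The 10 members each had 1 probe set carrying their symbol. For other genes, symbols were updated through the RefSeq table of GRCm38.p6 (20529 of 28815 probe sets by accession), and a gene with several probe sets was represented by the one with the highest mean. Differences were fitted by group alone and on unfiltered values with limma 3.58.1 under R 4.3.3, as moderated 2-sided tests from lmFit followed by eBayes. The p-values were adjusted by Benjamini and Hochberg's method across the 28815 probe sets. Intervals are limma's moderated 95% intervals, for 1 gene at a time. The fit was tested on simulated data. The 3 arrays per group limit the precision.

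The members and lists were chosen with earlier results of these data known. Of each list the genes past the threshold and the 3 with the smallest p were named, with the listed genes whose array profile was most like that of Twist1, the member with the widest range. Other genes at an unadjusted p under 0.05, Pdgfc, Pdgfd and the marker genes that passed were added after their values were seen. Alternatives comprised the replicate block, another prior, 2 filters on dim probe sets, 3 normalizations, array weights, a Welch test, a threshold of 0.1, another probe set per gene and leaving out each array. Same-numbered mutant and control arrays did not deviate together (correlations of -0.19, 0.04 and -0.19). Differently numbered ones had correlations of -0.046 to 0.21. Deviations from a group mean depend on each other in so few arrays, so these values cannot exclude a pairing. The main fit has no pairing, and the replicate block is given as an alternative. Figures were drawn with matplotlib 3.10.9.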

Additional observations from a re-analysis of the deposited data

How the results depend on the processing

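The count of 0 called among the 10 genes held in every alternative but array weights, which gave 1, Meox2, and whose estimation stopped short of its tolerance. The median change of the 10 genes was -0.067 to -0.010 when 1 array was left out. Over all probe sets 223 were called, against 7 with the replicate block, 1748 with array weights, 0 with the Welch test (2231 at an unadjusted p under 0.05), 360 at a threshold of 0.1 and 11 to 152 when 1 array was left out. Among the 118 listed genes 1 was called, against 0 with the replicate block (16 at an unadjusted p under 0.05), 2 with a trended robust prior, 2 with the filter at the 30th percentile, 3 with the filter at the median, 8 with array weights, 0 with the Welch test (9 at an unadjusted p under 0.05), 3 at a threshold of 0.1 and 0 to 0 when 1 array was left out (12 to 23 at an unadjusted limma p under 0.05). Over all 28815 probe sets 2780 had an unadjusted limma p under 0.05 with the block, and 2364 to 4286 when 1 array was left out. The block changed no call among the 10 genes and ended those of Anpep (adjusted p = 0.140), Krt19 (0.0849), Col11a1 (0.202) and Foxp4 (0.130). The cause of these shifts was not tested.

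Changes near 0 turned their sign in some fits and passed in none of them. When 1 array was left out, Tbx5 ranged from -0.020 to 0.0065, Tcf21 from -0.030 to 0.035, Prrx1 from -0.074 to 0.045, Pdgfra from -0.086 to 0.00015, Pdgfrb from -0.024 to 0.018, Pdgfd from -0.19 to 0.023, Fgf10 from -0.0057 to 0.15 and Cdkn2a from -0.072 to 0.0090. With repeated quantile normalization Tcf21 was at 0.0035 and Pdgfrb at 0.0081, with median centring Pdgfrb was at 0.00025, and with array weights Tcf21 was at 0.021, Prrx1 at 0.017 and Frzb at 0.017. The filter at the median left out Twist1, and the 10 genes had no second probe set. Signal over background was not analysed here, so how far Twist1 lies above it is not known.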
